A study of Prunus persica and Prunus armeniaca with 129 samples.

Results

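The neighbours of the DAM locus are the gene rows that stand next to the DAM (dormancy-associated MADS-box) genes on chromosome 1 of the peach genome. All rows from Prupe.1G521100 to Prupe.1G541700 in the numeric order of their identifiers were taken, and the 6 DAM rows themselves were left out. This gave 200 genes of 26872 rows, with 100 on each side of the locus. The study removed the 7 gene models Prupe.1G531100 to Prupe.1G531700, whose exons did not separate the DAM genes, and put the 6 DAM rows of an older annotation in their place. The identifiers give the order of the rows but no distances, and no coordinates or sequences of the genes were available for use here. The 200 genes were taken by identifier and not by a measured value, though earlier results of these data were known when the region was chosen. The question was whether genes beside the DAM genes follow the same time course through winter.

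Gene expression was measured by RNA sequencing of floral buds in 60 apricot (Prunus armeniaca) and 69 peach (Prunus persica) libraries. The later or lower-chill group of each pair was set against the earlier or higher-chill one, with chill hours (CH) as the measure of accumulated cold. In apricot, the early blooming genotypes A2137 and A1956 and the late blooming genotypes A660 and A1267 were sampled at 0, 100, 400 and 800 CH and when sepals and petals became visible, with 1 to 3 libraries for each of 24 groups. The early apricots were already in flower at 800 CH, so those libraries are flowers and not buds, and A2137 and A1267 have 1 library each at 0 CH. In peach, the low chill genotypes A209 and A340 were sampled at 0, 100 and 600 CH and at pre-bloom, and the high chill genotypes A318 and A323 at 0, 100, 600 and 1000 CH and at pre-bloom, with 3 or 4 libraries for each of 18 groups. Apricot trees were grafted clones grown in France, and the peaches were clones of progeny from a single cross grown in South Carolina. Each class of a species is therefore 2 genotypes, and a difference between classes is a difference between 2 and 2 genotypes. No treatment was given, so chill hours, calendar date and bud development changed together and cannot be told apart.

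DAM genes encode MADS-box transcription factors of the SVP/AGL24 kind and lie in a tandem cluster in Prunus. A peach mutant that lacks part of this cluster does not form dormant terminal buds. DAM transcripts usually decline as chilling accumulates, and the decline of DAM5 and DAM6 accompanies the passage from endodormancy, in which a bud cannot grow even in warmth, to ecodormancy, in which only cold holds it back. Genes that lie side by side on a chromosome can share a chromatin domain, but they can also be regulated separately.

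Library totals were 7593825 to 26253101 counts in apricot and 494799 to 26858662 counts in peach, where 9 libraries held less than the median divided by 4. At 1000 CH these were A318 replicates 1, 2 and 3 and A323 replicates 2 and 4. At pre-bloom they were A209 replicate 1 and A340 replicates 1 and 4, and at 0 CH A340 replicate 3. None was sampled at 100 or 600 CH. Depth and stage thus changed together in the peach comparisons that include 1000 CH, and in low chill pre-bloom against 600 CH. Depth also differed between the classes at pre-bloom, with 494799 to 7153313 counts in low chill and 3856248 to 16036703 in high chill libraries. A340 held 1615959 to 6172374 counts at 0 CH, against 8751290 to 22752322 at 100 CH, while totals of the other peaches overlapped between these stages. Levels are given as CPM, counts scaled to a common library size with TMM factors, on which scale a count of 3 equals 0.0974 to 0.433 CPM in the apricot libraries and up to 5.81 CPM in the shallowest peach library. The 200 neighbours took 0.749% to 1.02% of the counts in apricot and 0.610% to 0.843% in peach. After removal of genes with low counts, 171 neighbours were tested in apricot, 174 in peach, 164 in both and 19 in neither, and 7 had no count in any library. The 3 genes fixed as marks of floral bud identity, matches of AP1, LFY and SVP, had counts in every group of buds. The last is of the same kind as the DAM genes, so the sum of the 3 does not measure floral identity alone. Genes of the tapetum and pollen wall, the anther tissue that feeds and coats pollen, differed greatly between stages, and their summed level is given where it moved with a result.

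DAM6 (ppa010714m) set the time course against which the neighbours were compared. Late apricots had 3.32, 16 and 18.3 CPM (lowest, median, highest of 6 libraries) at 800 CH, against 407, 567.9 and 813 CPM at 100 CH. The log2 fold change of DAM6 was -5.64 there, -4.05 in the early apricots at 400 against 100 CH, -3.85 in low chill peaches at 600 against 100 CH and -3.59 in high chill peaches at 1000 against 100 CH. DAM5 (ppa010822m) fell alongside it in all 4 comparisons, with log2 fold changes of -5.44, -3.90, -2.85 and -3.70. DAM4 fell in the late apricots and in both peach classes but was not called in the early apricots. The remaining rows moved less evenly, since DAM3 fell in 3 of the 4 comparisons, DAM2 only in the late apricots and DAM1 only in low chill peaches. Here and below, a gene is called higher or lower where edgeR's test against a 2-fold change gives an adjusted p below 0.05 over all genes of the species.

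The later stage of these comparisons need not lie after dormancy release in every genotype. Chilling requirements were not measured in the apricots, A323 was sampled at 1000 CH short of its requirement, and the dormancy state of A318 at that stage is uncertain. Tapetum and pollen wall genes, which were high in A2137 at 400 CH and A660 at 800 CH, summed to 0.271 to 0.383 CPM in A1956 at 400 CH and 0.767 to 1.59 CPM in A1267 at 800 CH. Pooled values may thus mix genotypes that stand at different stages, and the comparisons are called around dormancy release only as a name for the interval.

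Most neighbours did not follow this course. Of 181 neighbours tested in at least 1 of these 4 comparisons around dormancy release, 138 were called in none, 36 were higher in at least 1 and 7 were lower in at least 1. The 43 called genes make 23.8% of the neighbours, and 23.7% of all genes tested were called by the same rule. The lower neighbours were 3.87% of those tested, against 5.86% of all genes, and the higher ones 19.9%, against 18.2%. No neighbour was called higher in one of the 4 comparisons and lower in another. The 7 that were lower in at least 1 were Prupe.1G521800, Prupe.1G522800, Prupe.1G524500, Prupe.1G531800, Prupe.1G532300, Prupe.1G538200 and Prupe.1G538400.

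Comparison by comparison, the shares of neighbours called lay near those over all genes. In the late apricots at 800 against 100 CH, 11 neighbours were higher and 3 lower (8.19% of 171), where 7.7% of all genes were called, 5.9% higher and 1.81% lower. In the early apricots at 400 against 100 CH, 2 were higher and 1 lower (1.75%), where 3.48% of all genes were called, 2.43% higher and 1.05% lower. This count rests on A2137, which alone gave 21 called neighbours, where A1956 alone gave 0. The share of all genes called in those fits is not given here, so whether the contrast is particular to the neighbours cannot be told. In low chill peaches at 600 against 100 CH, 19 were higher and 6 lower (14.4% of 174), where 12.1% of all genes were called, 8.5% higher and 3.64% lower. In high chill peaches at 1000 against 100 CH, 21 were higher and 2 lower (13.2%), where 12.7% of all genes were called, 10.5% higher and 2.28% lower. The high chill count depended on single libraries, with 13 neighbours called without A318 100 CH replicate 4, 10 without A318 1000 CH replicate 4 and 15 without A323 1000 CH replicate 3.

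**Figure D1:**
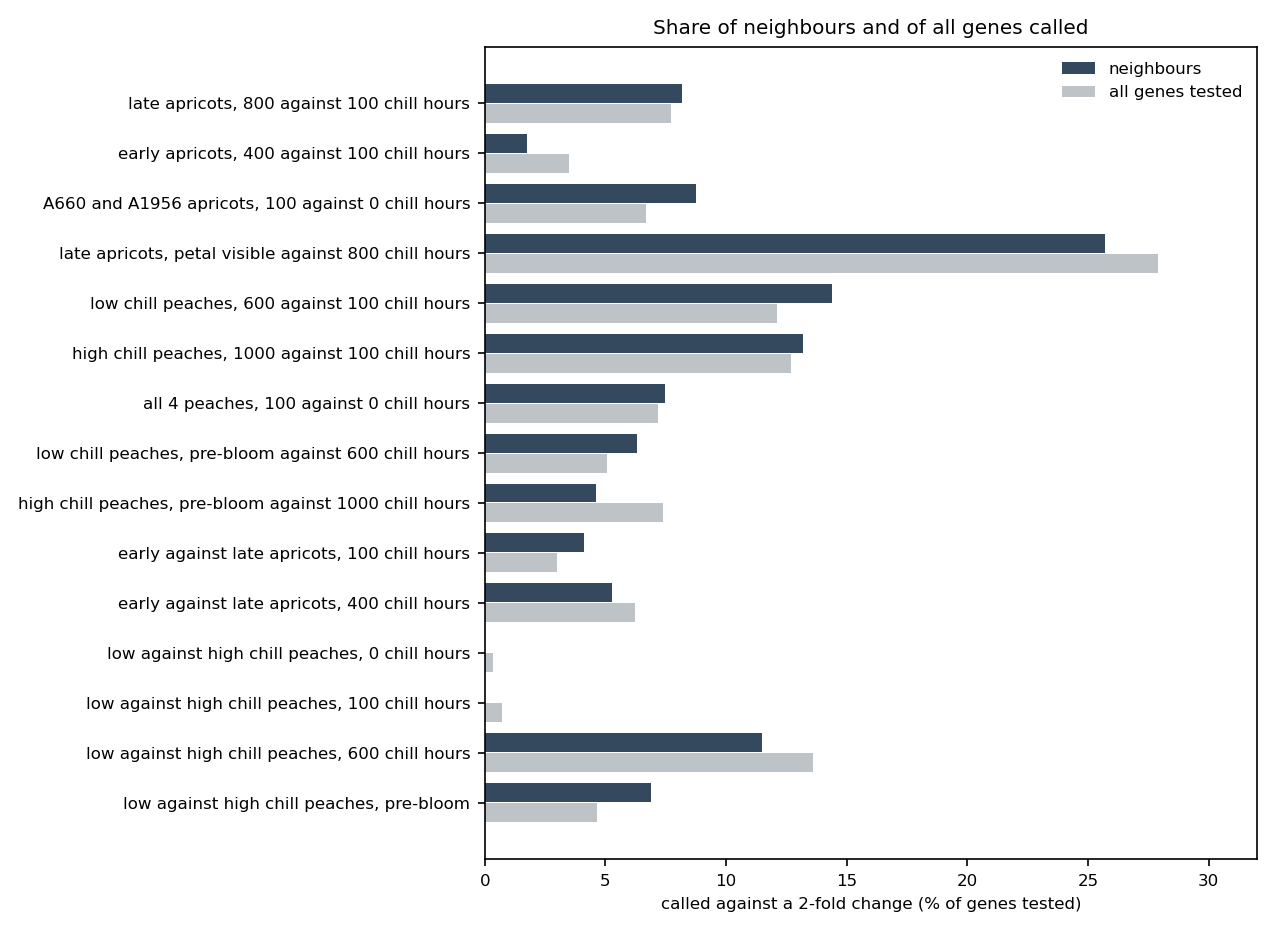
Share of neighbours (percent, of those tested) called higher or lower in each of the 15 comparisons, beside the same share over all genes tested in that species. In the late apricots at petal visible against 800 CH 25.7% of neighbours and 27.9% of all genes were called, and in low chill peaches at 600 against 100 CH 14.4% and 12.1%.

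Set by set, 2 neighbours were lower in at least 1 apricot and at least 1 peach comparison, Prupe.1G521800 and Prupe.1G524500, which is 1.22% of the 164 tested in both species, against 1% of all genes. Likewise 7 were higher in both species (4.27%, against 3.8% of all genes): Prupe.1G523700, Prupe.1G524600, Prupe.1G525500, Prupe.1G525600, Prupe.1G529500, Prupe.1G538300 and Prupe.1G541200. When each late apricot was taken alone, only Prupe.1G523700 of these 7 was called in A1267. The size of change required matters for such a count, so the weaker question of any change was also asked. Against no change, Prupe.1G521800, Prupe.1G530000 and Prupe.1G538400 were lower in all 4 comparisons (1.83%, against 1.62% of all genes), as were DAM3, DAM4, DAM5 and DAM6. In the other direction, Prupe.1G523700, Prupe.1G529800, Prupe.1G536700, Prupe.1G540600 and Prupe.1G541200 were higher in all 4 (3.05%, against 2.89% of all genes).

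The called genes were spread over the row order. Among the nearest 5 rows below the replaced models 2 were higher and 0 lower in at least 1 of the 4 comparisons, and among the nearest 5 above 1 was higher and 1 lower. Rows 6 to 25 gave 6 higher and 0 lower of 19 tested below the locus, and 3 higher and 1 lower of 17 tested above it. Rows 26 to 50 gave 2 higher and 0 lower of 23 tested below, and 2 higher and 0 lower of 20 tested above. Rows 51 to 75 held the most calls, with 8 higher and 1 lower of 24 tested below, and 7 higher and 2 lower of 22 tested above. Rows 76 to 100 gave 2 higher and 2 lower of 24 tested below, and 3 higher and 0 lower of 22 tested above. The lower genes Prupe.1G521800 and Prupe.1G522800 stand in that outermost group of rows below the locus, and Prupe.1G538200 and Prupe.1G538400 in rows 51 to 75 above it. Over all genes tested, 18.2% were called higher and 5.86% lower in at least 1 of the 4 comparisons. No test was made of position.

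**Figure D2:**
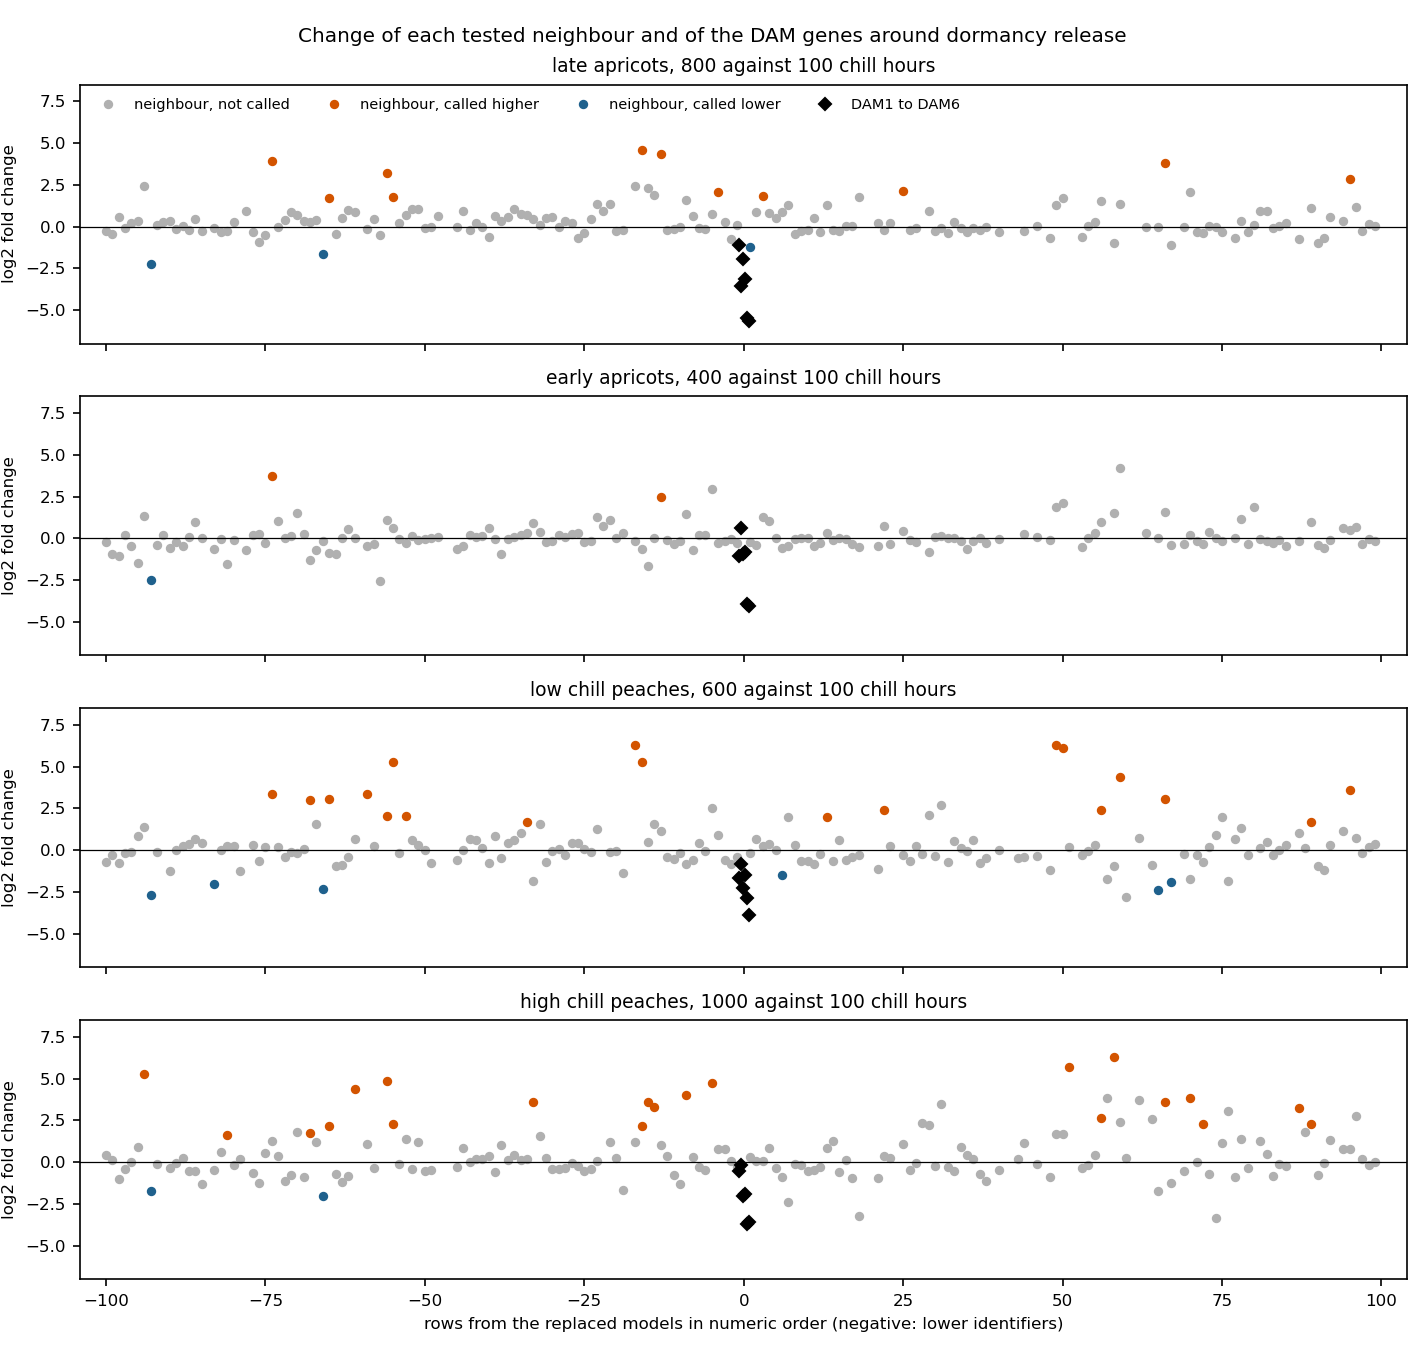
Log2 fold change of each neighbour against its place in the row order, counted in rows below (negative) and above (positive) the replaced gene models, in the 4 comparisons around dormancy release; diamonds mark DAM1 to DAM6 and coloured points the called genes. DAM5 and DAM6 lie below nearly every neighbour in all 4 panels, and the called neighbours are spread over the whole range of rows.

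The first row above the locus, Prupe.1G531800, was the only one of the 10 nearest to be called lower in any of the 4 comparisons around dormancy release. It had 6.2, 9.77 and 15.2 CPM (lowest, median, highest of 6) in the late apricots at 800 CH, against 20.3, 22.8 and 25.9 CPM at 100 CH. The groups do not overlap, and the log2 fold change was -1.22 (SE 0.09, adjusted p 0.030). The change of Prupe.1G531800 was -1.61 in A660 (adjusted p 4.1e-05) and -0.82 in A1267, which alone was not called, and the call was lost in 5 of 12 fits without 1 library and with DESeq2. In the other 3 comparisons Prupe.1G531800 moved by -0.21 (early apricots), -0.17 (low chill peaches) and 0.32 (high chill peaches) on the log2 scale. The fall of DAM6 was many times deeper in each of them.

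The rows just below the locus behaved differently from it. Prupe.1G531000, next to the replaced models, had log2 fold changes of 0.11, -0.25, -0.39 and -0.32 in the late apricots, early apricots, low chill peaches and high chill peaches, and was called in none. Prupe.1G530900 and Prupe.1G530800 were also called in none, with log2 fold changes between -0.83 and 0.80. Prupe.1G530700 rose in the late apricots, with 7.08, 22.5 and 45.1 CPM at 800 CH against 2.31, 4.3 and 7.66 CPM at 100 CH (log2 fold change 2.09, SE 0.12, adjusted p 2.8e-10). Those ranges overlap slightly, so 1 or more 800 CH libraries lie within the 100 CH range. Prupe.1G530600, whose best Arabidopsis match in the study's tables is an auxin-responsive family protein, was listed between 0 and 0.0857 CPM in high chill peaches at 100 CH and between 0 and 3.72 CPM at 1000 CH (log2 fold change 4.72, adjusted p 0.0087). That call rests on a gene at or near 0 in many libraries and was not made in A323 alone.

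Above the locus, Prupe.1G532000 went the opposite way to DAM6 in apricot. It had 14.3, 42.8 and 48.4 CPM in the late apricots at 800 CH, against 8.62, 11.1 and 14.6 CPM at 100 CH (log2 fold change 1.83, SE 0.19, adjusted p 0.00013). At 100 CH it had been lower than at 0 CH in A660 and A1956, with 8.62, 11.4 and 18.4 CPM against 33.5, 49.8 and 53.1 CPM over 5 libraries each (log2 fold change -1.81). In peach Prupe.1G532000 was not called around dormancy release, with log2 fold changes of 0.25 and 0.09. Prupe.1G531900, its neighbour, did the reverse over the first 100 CH, with 129 to 189 CPM at 100 CH against 35.7 to 63.6 CPM at 0 CH (log2 fold change 1.56, adjusted p 0.0064). This call of Prupe.1G531900 was lost without A1956 0 CH replicate 1, in either genotype alone and with DESeq2, and that of Prupe.1G532000 in A1956 alone. Prupe.1G532100 and Prupe.1G532200 were called in none of the 4 comparisons around dormancy release, with log2 fold changes between -0.35 and 1.02.

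The one neighbour called lower in all 4 comparisons, as DAM5 and DAM6 were, was Prupe.1G521800, which the study's tables do not annotate and which stands near the far end of the rows below the locus. In low chill peaches it had 2.66, 4.03 and 8.16 CPM (lowest, median, highest of 8) at 600 CH, against 15.6, 29.3 and 40.5 CPM at 100 CH. In high chill peaches it had 6.72, 9.85 and 14.2 CPM at 1000 CH, against 29.5, 30.8 and 37.2 CPM over 7 libraries at 100 CH. In neither peach class do the ranges overlap. The log2 fold changes of Prupe.1G521800 were -2.67 (SE 0.22, adjusted p 1.1e-10) in low chill and -1.71 (SE 0.23, adjusted p 0.0052) in high chill peaches. In A318 alone the change was -1.60 and not called, and DESeq2 did not call the high chill fall either.

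In apricot the same gene gave unlike values in the 4 genotypes, a spread that was not tested. Prupe.1G521800 had 16.6 and 14.3 CPM in A2137 and 31.3 and 24.3 CPM in A1956 at 400 CH, against 296 and 274 CPM in A2137 and 53.8 and 41 CPM in A1956 at 100 CH. The late apricots had 1.83, 5.23 and 22.6 CPM at 800 CH, against 17.9, 27.1 and 37.6 CPM at 100 CH, so the highest 800 CH library lies inside the 100 CH range. The log2 fold changes were -2.48 (SE 0.25, adjusted p 4.4e-06) in the early and -2.21 (SE 0.22, adjusted p 5.4e-06) in the late apricots. Taken alone, A2137 gave -4.20 and A1267 -3.01, while A1956 gave -0.77 and A660 -1.42, neither of them called. Leaving out any single library did not end the call of Prupe.1G521800 in any of the 4 comparisons.

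Prupe.1G524500, also without annotation, fell in the late apricots and in both peach classes but not in the early apricots. It had 19.9, 26 and 40.4 CPM in low chill peaches at 600 CH, against 99.2, 133 and 174 CPM at 100 CH, and 45.5, 64.5 and 78.5 CPM in high chill peaches at 1000 CH, against 209.01, 245 and 326 CPM at 100 CH. The log2 fold changes of Prupe.1G524500 were -2.32 (SE 0.17, adjusted p 8.3e-11) and -2.002 (SE 0.17, adjusted p 1.4e-06), with no overlap. Late apricots had 9.62, 14.3 and 20.5 CPM at 800 CH, against 28.1, 47.3 and 54.1 CPM at 100 CH (log2 fold change -1.67, SE 0.22, adjusted p 0.0060). Neither late apricot alone reached the threshold, and DESeq2 did not call this fall. In the early apricots Prupe.1G524500 had 32.2 and 36.2 CPM in A2137 and 14.1 and 22 CPM in A1956 at 400 CH, against 34.4 and 25.4 CPM in A2137 and 26.6 and 22.9 CPM in A1956 at 100 CH. Those values overlap, whereas DAM6 (ppa010714m) was lower in every 400 CH library than in every 100 CH library of the early apricots (0.277 to 40.5 CPM against 51.2 to 240 CPM).

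Prupe.1G538400, annotated by its Arabidopsis match as a rhamnogalacturonate lyase family protein, a kind of enzyme that cleaves pectin backbones, was the neighbour most like DAM6 in peach. In low chill peaches it had 3.64, 9.65 and 14.3 CPM at 600 CH, against 21.5, 34.5 and 44.2 CPM at 100 CH (log2 fold change -1.89, SE 0.22, adjusted p 0.00016). The ranges do not overlap. Late apricots had 35.6, 44.1 and 49.9 CPM at 800 CH against 76.1, 91.3 and 108 CPM at 100 CH, and in high chill peaches 14.2, 26.3 and 40.1 CPM at 1000 CH against 45.4, 61 and 74.5 CPM at 100 CH. The log2 fold changes of Prupe.1G538400, -1.10 and -1.24, passed the test against no change but not the one against 2-fold. In the early apricots the genotypes parted, with 33.3 and 34.9 CPM in A2137 at 400 CH against 76 and 87.2 CPM at 100 CH, but 139 and 168 CPM in A1956 at 400 CH against 114 and 113 CPM at 100 CH.

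Of the 4 comparisons around dormancy release, the other lower neighbours were called in that of low chill peaches alone, at 600 against 100 CH. Prupe.1G532300 had 19.7 to 46.1 CPM against 50.2 to 118 CPM (log2 fold change -1.47, adjusted p 0.024) and lost its call without A209 100 CH replicate 1, A209 600 CH replicate 3 or A340 100 CH replicate 2. Prupe.1G522800 had 2.43 to 7.8 CPM against 9.16 to 61 CPM (log2 fold change -2.05, adjusted p 0.024) and lost its call without A209 600 CH replicate 3 or A340 100 CH replicate 2. Prupe.1G538200 had 0 to 0.69 CPM against 0.603 to 4.95 CPM and lost its call in 11 of 16 fits without 1 library. DESeq2 called none of these 3 falls. Prupe.1G530000, which moved little, had log2 fold changes of -0.16, -0.31, -0.54 and -0.75 in the late apricots, early apricots, low chill and high chill peaches.

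**Figure D3:**
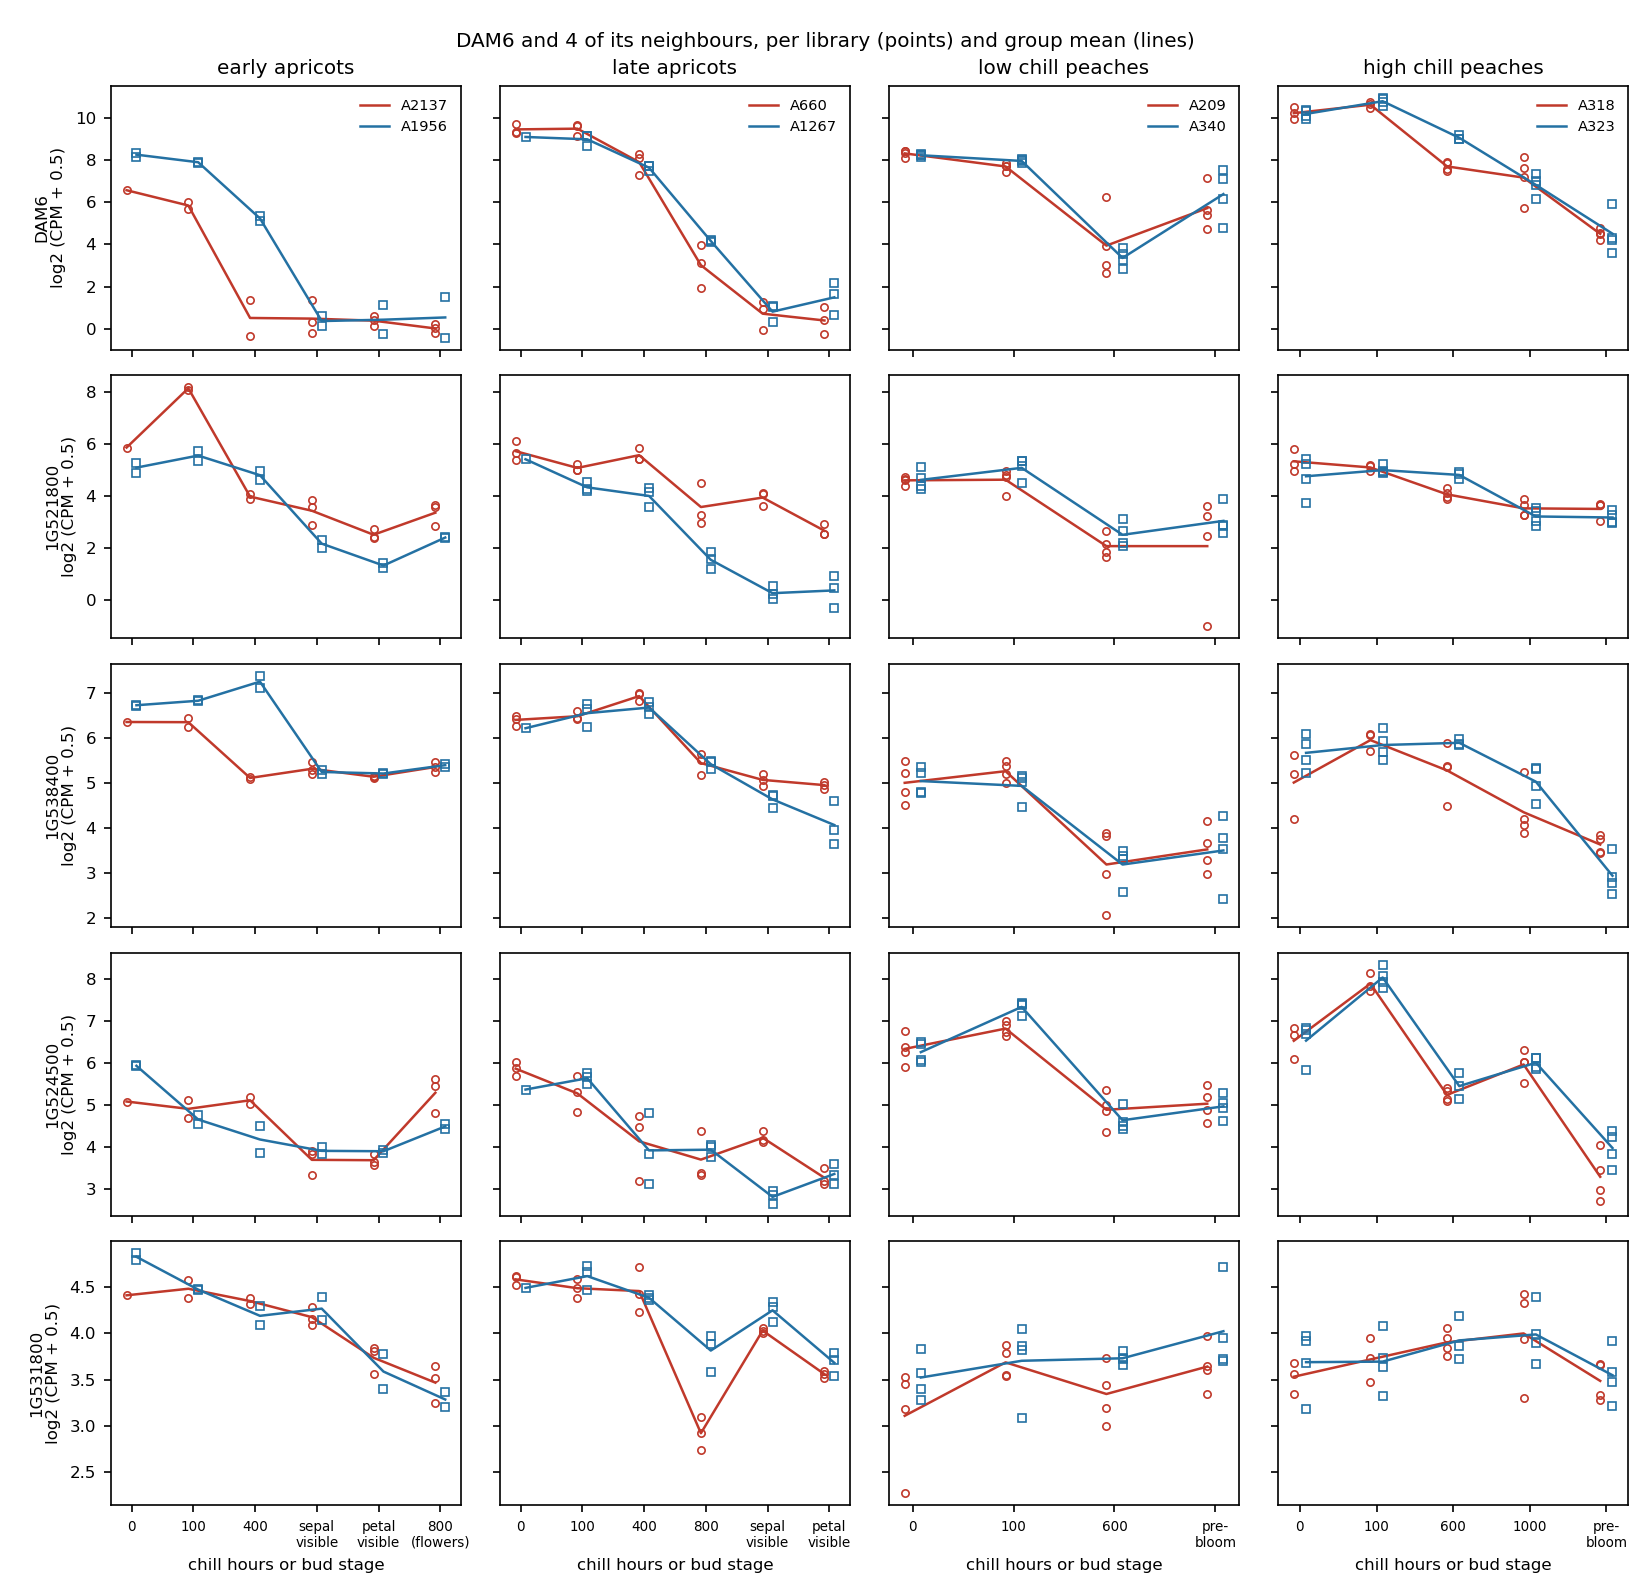
CPM of DAM6 (ppa010714m) and of the neighbours Prupe.1G521800, Prupe.1G538400, Prupe.1G524500 and Prupe.1G531800 in every library (points) by stage, with group means joined, on a log axis of CPM + 0.5; columns are early apricots, late apricots, low chill peaches and high chill peaches. DAM6 spans 3.32 to 813 CPM between 100 and 800 CH in the late apricots alone, whereas Prupe.1G531800 stays within a narrow band in peach.

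The whole time course was compared with that of DAM6 through the correlation of group means of log2 CPM, over 24 groups in apricot and 18 in peach. The groups share depth, stage and genotype, so these values are a description. An r of 0.7 or more with DAM6 was reached by 17 of 171 neighbours in apricot (9.94%, against 8.96% of all genes) and by 7 of 174 in peach (4.02%, against 4.33%). With DAM5 the shares were 14 neighbours in apricot (8.19%, against 6.52%) and 3 in peach (1.72%, against 1.84%), and with DAM4 they were 1 in apricot (0.585%, against 1.42%) and 8 in peach (4.6%, against 6.3%). With DAM1 they were 16 in apricot (9.36%, against 9.26%) and 9 in peach (5.17%, against 5.49%), with DAM2 11 (6.43%, against 4.13%) and 5 (2.87%, against 3.01%), and with DAM3 2 (1.17%, against 0.801%) and 10 (5.75%, against 3.66%). Over the 14 apricot groups of buds up to the last chill hour count, the order of these shares turned round for DAM4, with 6 neighbours (3.51%, against 2.25% of all genes), while 5 reached 0.7 with DAM6 (2.92%, against 2.31%). The median r with DAM6 was 0.056 over the neighbours and -0.051 over all genes in apricot, and -0.013 and -0.0013 in peach. DAM5 and DAM6 themselves correlated at 0.99 in apricot and 0.95 in peach.

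In apricot the neighbours most like DAM6 were Prupe.1G536500 (r = 0.91), Prupe.1G539600 (0.86) and Prupe.1G534300 (0.85). Prupe.1G539600 matches CIPK8, a protein kinase of calcium signalling, and Prupe.1G534300 matches GATA25, a transcription factor of the zinc finger kind. None of these 3 was called around dormancy release in apricot, since Prupe.1G536500 moved by -0.66, Prupe.1G539600 by -0.34 and Prupe.1G534300 by -0.20 on the log2 scale in the late apricots. A high r thus describes the shape of a course and not its size. In peach the most like were Prupe.1G538400 (0.91), Prupe.1G521800 (0.86) and Prupe.1G524500 (0.83), all of which were lower at 600 than at 100 CH in low chill peaches. With DAM4 the highest values were those of Prupe.1G536500 (0.76), Prupe.1G538400 (0.63) and Prupe.1G534300 (0.63) in apricot, and of Prupe.1G538400 (0.83), Prupe.1G527100 (0.82) and Prupe.1G532200 (0.81) in peach.

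Prupe.1G534300 and Prupe.1G538400 reached an r of 0.7 with DAM6 in both species, 2 of the 164 neighbours, where 2.11% of all genes did so. At the other end, Prupe.1G529800 (-0.88), Prupe.1G537300 (-0.85) and Prupe.1G523700 (-0.83) were the most unlike in apricot, and Prupe.1G541200 (-0.86), Prupe.1G529500 (-0.85) and Prupe.1G524600 (-0.84) in peach. An r of -0.7 or less was found for 19 neighbours in apricot, where 12.9% of all genes had one, and for 9 in peach, where 5.64% had one. Among the 10 rows nearest to the locus, r with DAM6 ran between -0.67 (Prupe.1G532000) and 0.78 (Prupe.1G530900) in apricot and between -0.68 (Prupe.1G532100) and 0.61 (Prupe.1G531000) in peach. Prupe.1G531800, which fell in the late apricots, had an r of 0.68 in apricot and 0.10 in peach.

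**Figure D4:**
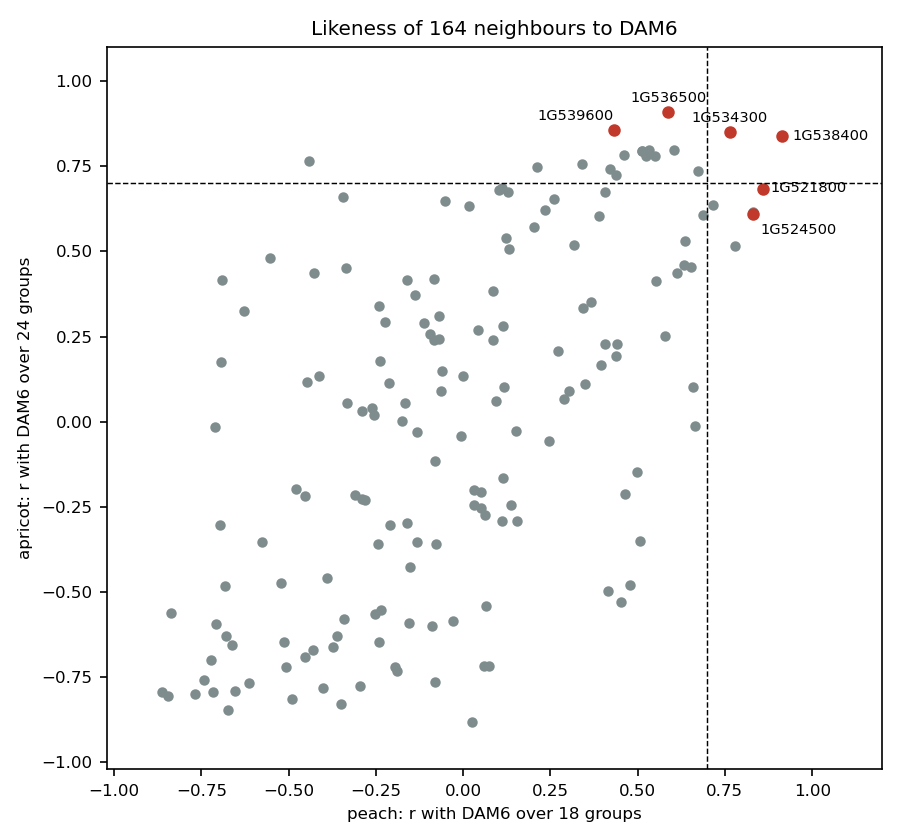
Correlation of each of the 164 neighbours with DAM6 over the group means of peach (x axis, 18 groups) and apricot (y axis, 24 groups), with dashed lines at 0.7. Only Prupe.1G534300 and Prupe.1G538400 lie in the upper right corner, and the 3 most like DAM6 in each species are named.

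Among genes that moved against DAM6, Prupe.1G523700 was prominent. It is annotated as a cupredoxin superfamily protein, a family of small copper-binding proteins that includes secreted cell surface proteins. Late apricots had 8.65, 11.3 and 32.1 CPM at 800 CH, against 0.705, 0.956 and 1.89 CPM at 100 CH (log2 fold change 3.95, SE 0.32, adjusted p 1.7e-10). In the early apricots Prupe.1G523700 had 35.6 and 40.2 CPM in A2137 and 3.14 and 2.85 CPM in A1956 at 400 CH, against 0.697 and 0.867 CPM in A2137 and 0.975 and 0.693 CPM in A1956 at 100 CH. Neither apricot comparison overlaps, although A1956 alone (log2 fold change 1.86) was not called. In low chill peaches it had 29.5, 249 and 420 CPM at 600 CH, against 12.1, 26.8 and 45 CPM at 100 CH (log2 fold change 3.34, SE 0.39, adjusted p 1.2e-07). In high chill peaches the log2 fold change of 1.25 was not called.

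Prupe.1G529800, which matches an aspartyl protease family, rose in apricot and stayed high. In the late apricots it had 12.1, 20.6 and 34.7 CPM at 800 CH, against 0.425, 0.801 and 2.99 CPM at 100 CH (log2 fold change 4.35, SE 0.28, adjusted p 3.3e-13). In the early apricots it had 39 and 41.8 CPM in A2137 and 2.15 and 1.49 CPM in A1956 at 400 CH, against 3.48 and 2.14 CPM in A2137 and 0.675 and 0.891 CPM in A1956 at 100 CH. Only the A2137 libraries of Prupe.1G529800 stand clear of the 100 CH values, and A1956 alone was not called. Before that, over the first 100 CH, Prupe.1G529800 had fallen in both species. It had 0.514 to 1.09 CPM at 100 CH against 2.7 to 9.19 CPM at 0 CH in A660 and A1956 (log2 fold change -2.87, adjusted p 9.3e-06), and 42.8 to 143 CPM against 189 to 548 CPM in the 4 peaches (log2 fold change -2.11, adjusted p 9.5e-07).

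Prupe.1G541200 and Prupe.1G525600 also rose in both species. Prupe.1G541200 had 52.1, 102 and 182 CPM at 600 CH, against 5.43, 9.23 and 12.1 CPM at 100 CH (log2 fold change 3.60, SE 0.24, adjusted p 6.5e-16). Among the late apricots, A660 reached 266 to 359 CPM of Prupe.1G541200 at 800 CH and A1267 only 21.1 to 41.1 CPM, against 10.3 to 21.8 CPM over both at 100 CH. The log2 fold change was 2.84 over the pair, but 4.20 in A660 and 1.48 in A1267, which alone was not called. Prupe.1G525600 had 56.5, 80.6 and 134 CPM in low chill peaches at 600 CH, against 1.17, 2.0 and 3.13 CPM at 100 CH (log2 fold change 5.29), and it also rose in high chill peaches (2.26) and late apricots (1.77). In the late apricots the call of Prupe.1G525600 was lost without A660 800 CH replicate 3 and in A1267 alone.

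A further 4 genes rose in both species, but in A1267 alone none of their late apricot calls was made. DESeq2 did not make those of Prupe.1G524600, Prupe.1G525500 and Prupe.1G538300, and none of the 4 was called in the early apricots. Prupe.1G529500 had 0.234 to 10.7 CPM in the late apricots at 800 CH, against 0 to 0.239 CPM at 100 CH, and 8.61 to 45.2 CPM in low chill peaches at 600 CH, against 0.241 to 1.52 CPM at 100 CH. The log2 fold changes of Prupe.1G529500 were 4.57 and 5.29, and 2.18 in high chill peaches, where the call was lost without A318 100 CH replicate 3, A318 100 CH replicate 4 or A318 1000 CH replicate 4. Prupe.1G524600 rose in low chill peaches (log2 fold change 3.04), high chill peaches (2.16) and late apricots (1.73), the last of which was lost in 6 of 12 fits without 1 library. Prupe.1G525500 rose by 4.85 in high chill peaches, and its calls in the late apricots (3.20) and low chill peaches (2.07) were lost in 7 of 12 and 10 of 16 such fits. Prupe.1G538300 rose by 3.80, 3.08 and 3.61 log2 units in the late apricots, low chill and high chill peaches, though it had only 0 to 0.92 CPM in the late apricots at 800 CH, and its high chill call was lost without A318 1000 CH replicate 4.

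A pair of adjacent rows gained strongly in low chill peaches. Prupe.1G536600, the second rhamnogalacturonate lyase among the neighbours, had 18.8, 58 and 126 CPM in low chill peaches at 600 CH, against 0.344, 0.645 and 3.72 CPM at 100 CH (log2 fold change 6.30, SE 0.51, adjusted p 8.7e-14). Prupe.1G536700 beside it had 11, 47.4 and 127 CPM, against 0.516, 0.706 and 1.11 CPM (log2 fold change 6.09). In high chill peaches at 1000 against 100 CH the log2 fold changes were 1.70 for Prupe.1G536600 and 1.66 for Prupe.1G536700, neither called. The 2 lyase genes, Prupe.1G536600 and Prupe.1G538400, moved in opposite directions in the same low chill libraries. How reads that match more than 1 copy were counted is not stated, so adjacent or related rows such as these may share reads.

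**Figure D5:**
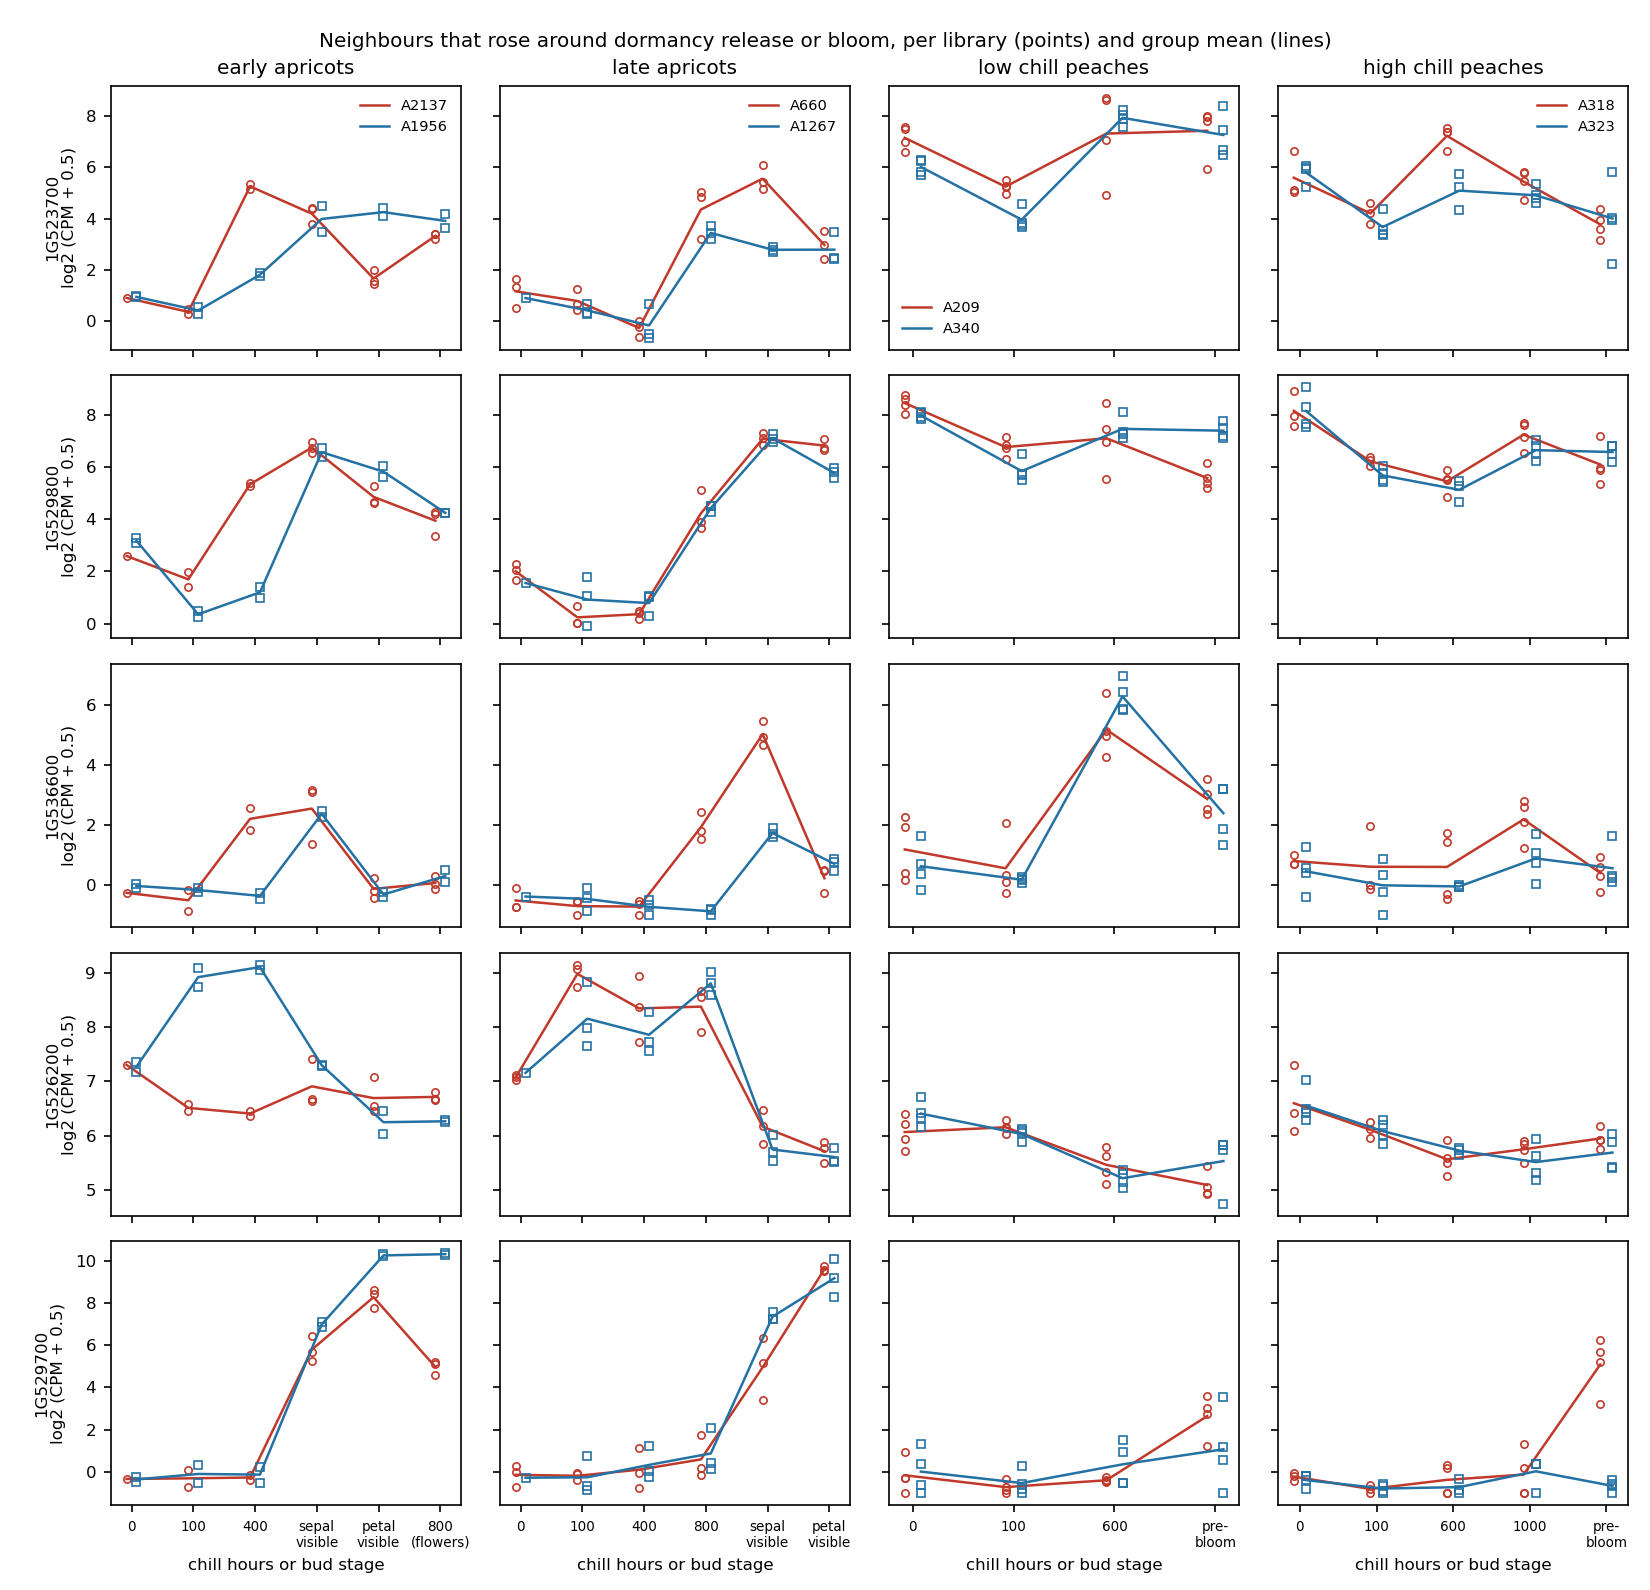
CPM of Prupe.1G523700, Prupe.1G529800, Prupe.1G536600, Prupe.1G526200 and Prupe.1G529700 in every library (points) by stage, with group means joined, on a log axis of CPM + 0.5, in early apricots, late apricots, low chill peaches and high chill peaches. Prupe.1G536600 peaks at 600 CH in low chill peaches (18.8 to 126 CPM), and Prupe.1G529700 at petal visible in late apricots (313 to 1071 CPM).

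Genes of the tapetum and pollen wall moved with these rises. Their summed level was 22.5 to 2550 CPM in low chill peaches at 600 CH, against 1.97 to 25.4 CPM at 100 CH, with 5 of 5 genes higher, and 0.767 to 912 CPM in the late apricots at 800 CH, against 0.106 to 0.705 CPM at 100 CH, again with 5 of 5 higher. The late apricots parted here, with 30 to 912 CPM in A660 and 0.767 to 1.59 CPM in A1267 at 800 CH. In A1267 the sum was thus low, but still above its 100 CH range of 0.106 to 0.705 CPM. Both Prupe.1G523700 and Prupe.1G529800 were called higher in A1267 alone, with log2 fold changes of 3.68 (adjusted p 1.4e-05) and 3.85 (adjusted p 1.3e-07). In high chill peaches the summed level was 35.2 to 155 CPM at 1000 CH, against 0.817 to 34.98 CPM at 100 CH, with 3 of 5 higher. In the early apricots the sum was 0.271 to 1820 CPM at 400 CH, against 0.268 to 1.12 CPM at 100 CH, with 1 of 5 higher, and only A2137 had raised values (1658 to 1820 CPM at 400 CH). None of the 5 was at 0 throughout a group in these comparisons. Other marks moved as well. The gene fixed for green tissue, a chlorophyll-binding protein, was called higher in the early apricots (31.1 to 226 CPM at 400 CH, against 5.2 to 18.2 CPM at 100 CH) and in low chill peaches (25.6 to 185 CPM at 600 CH, against 14.3 to 55.4 CPM at 100 CH). The ovule gene was called higher in the late apricots (0 to 3.96 CPM, against 0 to 0.584 CPM) and in the early ones (0.92 to 8.57 CPM, against 0.116 to 0.495 CPM). Floral bud identity genes summed to 40.9 to 81.3 CPM in low chill peaches at 600 CH, against 170 to 365 CPM at 100 CH, with 1 of 3 called lower, in the libraries where Prupe.1G521800 and Prupe.1G538400 fell. The part of these marks in the changes of the neighbours was not tested, in A1267 or in any other genotype. In bulk buds, a change in the share of a cell type and a change of RNA per cell cannot be told apart.

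Over the first 100 CH most called neighbours were higher in apricot and lower in peach, and so were most called genes overall. In A660 and A1956, the apricots with more than 1 library at 0 CH, 13 neighbours were higher and 2 lower at 100 CH (8.77%), where 6.69% of all genes were called, 4.69% higher and 2% lower. In the 4 peaches 1 was higher and 12 lower, where 7.16% of all genes were called, 1.63% higher and 5.53% lower. The gains in apricot were led by Prupe.1G521300, with 404, 864 and 1160 CPM at 100 CH against 43.8, 52.2 and 118 CPM at 0 CH (log2 fold change 3.64, SE 0.51, adjusted p 1.4e-05). Prupe.1G529200 had 608, 789 and 841 CPM against 23.5, 57.6 and 131 CPM (log2 fold change 3.55, SE 0.38, adjusted p 2.8e-07). Neither of these groups overlaps. DAM6 is thus not the only abundant row of the region at 100 CH in apricot. In the paper's account, DAM6 fell in all apricots as chilling accumulated, and peach DAM5 and DAM6 fell after 100 CH. The changes of the DAM rows from 0 to 100 CH are not given here, so these neighbours are not set against them.

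Prupe.1G522800 moved in opposite directions in the species over this interval. In A660 and A1956 it had 68.8, 122 and 170 CPM at 100 CH, against 3.37, 15 and 18.8 CPM at 0 CH (log2 fold change 2.92, adjusted p 2.3e-05). In the peaches it had 5.66, 10.4 and 61 CPM over 15 libraries at 100 CH, against 11.8, 73.3 and 243 CPM over 15 at 0 CH (log2 fold change -2.78, adjusted p 4.6e-06). In peach the ranges overlap, and the difference between the species was not tested. Prupe.1G526000 had 1.82, 4.27 and 7.48 CPM in the peaches at 100 CH against 9.49, 13.1 and 39.4 CPM at 0 CH (log2 fold change -2.05), but rose in A660 and A1956 (2.11). Prupe.1G524300 (log2 fold change -2.04) and Prupe.1G523700 (-1.94) were also lower in the peaches at 100 CH.

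A run of nearby rows moved together in apricot, picked out after its values were seen. Prupe.1G525600, Prupe.1G525800, Prupe.1G525900, Prupe.1G526000, Prupe.1G526100 and Prupe.1G526200 were all higher at 100 than at 0 CH in A660 and A1956, with log2 fold changes of 2.12, 2.95, 1.97, 2.11, 1.47 and 1.79. The call of Prupe.1G526100 was lost without A1956 0 CH replicate 1 or A1956 100 CH replicate 2, in either genotype alone and with DESeq2. That of Prupe.1G525600 was not made in A660 alone, nor those of Prupe.1G525900 and Prupe.1G526200 in A1956 alone. Of these, all but Prupe.1G526100 were lower again in the late apricots at petal visible than at 800 CH, with log2 fold changes between -3.62 (Prupe.1G525800) and -2.36 (Prupe.1G526000). Prupe.1G526200, the most abundant of them, had 425 to 560 CPM at 100 CH, against 130 to 164 CPM at 0 CH, and later 44.4 to 58.2 CPM at petal visible, against 240 to 516 CPM at 800 CH. In peach Prupe.1G526200 had log2 fold changes of -0.75 and -0.45 around dormancy release and was not called. Prupe.1G525700, which lies inside the run and matches the DnaJ chaperone ATJ1, was called in neither of the apricot comparisons.

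Of the 15 comparisons, that of opening buds held the largest share of called neighbours. In the late apricots at petal visible against 800 CH, 18 neighbours were higher and 26 lower (25.7%), where 27.9% of all genes were called, 15.3% higher and 12.7% lower. Prupe.1G529600 had 32.5, 71.1 and 106 CPM at petal visible, against 0, 0.0692 and 0.398 CPM at 800 CH, and Prupe.1G529700 beside it had 313, 741 and 1071 CPM, against 0.39, 0.733 and 3.74 CPM. The log2 fold changes were 9.13 (SE 0.52, adjusted p 4.7e-16) for Prupe.1G529600 and 9.06 (SE 0.53, adjusted p 1.9e-17) for Prupe.1G529700. Prupe.1G533000 had 93.8, 157 and 206 CPM, against 1.3, 1.6 and 2.97 CPM (log2 fold change 6.42, SE 0.19). Prupe.1G538200 and Prupe.1G539100 had no count at 800 CH in any of the 6 libraries, and were at least 4.18-fold and 2.53-fold higher at petal visible when set against a floor of 3 counts per library.

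Falls at petal visible were led by Prupe.1G522800, with 1.06, 1.91 and 2.79 CPM, against 87.6, 95.5 and 112 CPM at 800 CH (log2 fold change -5.68, SE 0.42, adjusted p 1.2e-13). Prupe.1G541300 had 4.49 to 7.25 CPM, against 44 to 85.7 CPM (log2 fold change -3.45). Prupe.1G527100, a homeobox gene that matches ATHB22, had 1.64, 2.14 and 2.86 CPM, against 6.35, 22.3 and 26.5 CPM (log2 fold change -3.18, SE 0.25). Prupe.1G534200, which had risen at 800 against 100 CH in these trees (log2 fold change 2.12), fell at petal visible (-2.62). DAM6 (ppa010714m) kept falling over this interval, with 0.335, 1.3 and 3.95 CPM at petal visible. The 3 marks of floral bud identity fell as well, with a sum of 11.9 to 21.9 CPM at petal visible against 78.7 to 130 CPM at 800 CH, and their part in these falls was not tested.

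The change to pre-bloom was followed separately in the 2 peach classes. In low chill peaches at pre-bloom against 600 CH, 3 neighbours were higher and 8 lower, where 5.05% of all genes were called (1.84% higher, 3.21% lower), and 7 were called without A209 Pre-bloom replicate 2. Prupe.1G536600 had 2.04, 6.51 and 11.1 CPM, against 18.8, 58 and 126 CPM at 600 CH (log2 fold change -3.22, adjusted p 2.7e-05), and Prupe.1G529600 had 0.833, 8.37 and 43.9 CPM, against 0, 0.197 and 0.472 CPM (log2 fold change 5.89, adjusted p 1.8e-07). DAM6 (ppa010714m) rose over this interval, by 2.32 log2 units. Tapetum and pollen wall genes fell, with a sum of 9.65 to 130 CPM at pre-bloom against 22.5 to 2550 CPM at 600 CH and 5 of 5 lower. In high chill peaches at pre-bloom against 1000 CH, 5 neighbours were higher and 3 lower, where 7.38% of all genes were called (3.59% higher, 3.79% lower), and 5 were called without A318 Pre-bloom replicate 1.

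Prupe.1G527100 and Prupe.1G524500 led the falls in high chill peaches at pre-bloom. Prupe.1G527100 had 2.35, 4.08 and 9.43 CPM at pre-bloom, against 36.9, 53 and 79.9 CPM at 1000 CH (log2 fold change -3.72, SE 0.35, adjusted p 1.2e-09). Prupe.1G524500 had 6.04, 12.1 and 20.2 CPM, against 45.5, 64.5 and 78.5 CPM (log2 fold change -2.33, SE 0.18, adjusted p 8.8e-10). DAM6 (ppa010714m) also fell there, to 11.4 to 60.3 CPM at pre-bloom, against 51.9 to 282 CPM at 1000 CH. The gains were led by Prupe.1G533000 (11.5 to 20.8 CPM, against 0 to 4.08 CPM) and Prupe.1G526000 (19.7 to 181 CPM, against 4.66 to 12.9 CPM), with log2 fold changes of 3.23 and 2.78. Prupe.1G539100 had 0.183 to 1.15 CPM at pre-bloom, against 0 in all 8 libraries at 1000 CH, and its call was lost without A318 1000 CH replicate 4. Before TMM scaling, a count of 3 equalled 0.361 to 5.67 CPM in those 1000 CH libraries. Counts of 0 there are thus weak evidence of a lower level.

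The number of neighbours that differed between early and late apricots depended on the genotypes. At 100 CH 4 were higher and 3 lower in the early ones, where 2.97% of all genes were called (1.58% higher, 1.38% lower), and at 400 CH 7 were higher and 2 lower, where 6.21% were called (4.39% higher, 1.82% lower). Without A2137 the counts were 1 and 3 at these stages, and without A1956 they were 22 and 34, while 4 were called at 100 CH without A1267. Shares over all genes are not given for these fits, so the counts are not read as particular to the neighbours. Prupe.1G521800 had 41, 53.8, 274 and 296 CPM in the early apricots at 100 CH, against 17.9, 27.1 and 37.6 CPM (lowest, median, highest of 6) in the late ones (log2 fold change 2.16, SE 0.21, adjusted p 3.1e-05), while at the same stage DAM6 (ppa010714m) had 51.2 to 240 CPM in the early and 407 to 813 CPM in the late apricots. This call of Prupe.1G521800 was lost without A2137. Prupe.1G523000, which matches the homeobox gene ATHB6, had 666 and 550 CPM in A2137 and 64.8 and 39.8 CPM in A1956, against 20.6 to 75.6 CPM in the late apricots, and it too was not called without A2137. Prupe.1G525300, which matches a MATE efflux transporter, had 0 to 0.149 CPM in the early apricots, against 0.136 to 26.9 CPM in the late ones at 100 CH (log2 fold change -4.86), a call lost without A1267. Prupe.1G534600 and Prupe.1G537000 were higher in the early apricots at under 2 CPM, at 0.15 to 0.322 CPM against 0 in all 6 libraries and at 0.347 to 1.66 CPM against 0 to 0.204 CPM, and the call of Prupe.1G534600 was lost without A1956 100 CH replicate 2.

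At 400 CH Prupe.1G523700 had 2.85, 3.14, 35.6 and 40.2 CPM in the early apricots, against 0.137, 0.278 and 1.06 CPM in the late ones (log2 fold change 4.86, SE 0.41, adjusted p 3.8e-10). Prupe.1G536600 had 5.49 and 3.1 CPM in A2137 and 0.23 and 0.339 CPM in A1956, against 0 to 0.213 CPM in the late apricots (log2 fold change 3.27, adjusted p 0.0051), and its call was lost without A1956 400 CH replicate 2. Prupe.1G528900 had 1.79 to 5.52 CPM against 0.261 to 1.62 CPM (log2 fold change 1.999) and lost its call without A1956 400 CH replicate 1. Prupe.1G533900 had 5.37 to 8.13 CPM against 9.41 to 38.4 CPM (log2 fold change -1.60, adjusted p 0.036), a call lost in 7 of 10 fits without 1 library, with DESeq2, and without A1267 or A2137. The summed tapetum and pollen wall level at 400 CH was 0.271 to 1820 CPM in the early apricots, high in A2137 alone, against 0.360 to 1.29 CPM in the late ones. Its part in these differences was not tested.

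Between low and high chill peaches, no neighbour passed the 2-fold test before 600 CH. At 0 CH 0 neighbours were called, where 0.323% of all genes were (0.0664% higher, 0.257% lower), and at 100 CH again 0, where 0.7% were (0.253% higher, 0.447% lower). In edgeR's test against 2-fold 4 and 9 neighbours had an unadjusted p below 0.05 at these stages, and against no change 24 and 41, of which 3 and 11 passed adjustment, as did 1.9% and 5.74% of all genes, while DESeq2 called 0 and 0. At 600 CH 15 neighbours were higher and 5 lower in low chill peaches, where 13.6% of all genes were called, 9.82% higher and 3.76% lower. Prupe.1G541200 had 52.1, 102 and 182 CPM in low chill peaches at 600 CH, against 1.3, 2.99 and 5.56 CPM in high chill peaches (log2 fold change 5.20, SE 0.28, adjusted p 5.7e-21). Prupe.1G536700 and Prupe.1G536600 differed by 6.73 and 6.31 log2 units, again with no overlap.

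The lower neighbours at 600 CH included those most like DAM6. Prupe.1G521800 had 2.66, 4.03 and 8.16 CPM in low chill peaches, against 14.3, 19.3 and 30.1 CPM in high chill peaches (log2 fold change -2.20, SE 0.22, adjusted p 8.5e-07). Prupe.1G538400 had 3.64, 9.65 and 14.3 CPM, against 21.9, 56.9 and 62.3 CPM (log2 fold change -2.41, SE 0.23, adjusted p 5.6e-08). Prupe.1G536500 was also lower in low chill peaches at 600 CH (log2 fold change -2.79), though the ranges of 6.92 to 16.1 and 13.6 to 178 CPM overlap. Prupe.1G524500 was not called there, since the high chill peaches had already reached 33.7 to 53.9 CPM at 600 CH. The summed tapetum and pollen wall level was 22.5 to 2550 CPM in low chill against 4.46 to 40.8 CPM in high chill peaches, with 5 of 5 genes higher, and its part was not tested.

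At pre-bloom 5 neighbours were higher and 7 lower in low chill peaches, where 4.65% of all genes were called, 1.98% higher and 2.68% lower. Prupe.1G523700 had 61.2, 199 and 342 CPM in low chill peaches, against 4.12, 14.9 and 56.6 CPM in high chill peaches (log2 fold change 3.41, SE 0.39, adjusted p 6.6e-07). Prupe.1G536700 was higher by 2.91 log2 units. Prupe.1G526000 had 3.14, 6.18 and 15.3 CPM, against 19.7, 39.2 and 181 CPM (log2 fold change -3.07, SE 0.29, adjusted p 1.1e-08), and Prupe.1G525500 had 0.278 to 9.68 CPM, against 10.5 to 18.9 CPM (log2 fold change -3.47). Prupe.1G539100, at 0 in all 8 low chill libraries and 0.183 to 1.15 CPM in the high chill ones, lost its call without A209 Pre-bloom replicate 2 or replicate 4. In those low chill libraries a count of 3 equalled 0.419 to 6.06 CPM before TMM scaling, so the counts of 0 are weak evidence of a lower level.

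Whether the classes changed by different amounts was tested directly. The change between 100 and 400 CH differed between early and late apricots for 53 neighbours, 23 with the higher and 30 with the lower value in the early ones, where 29.6% of all genes differed, 15.4% higher and 14.2% lower. The change between 100 and 600 CH differed between low and high chill peaches for 46 neighbours, 26 higher and 20 lower, where 26.1% of all genes differed, 14.3% higher and 11.8% lower. Prupe.1G521800 fell more in the early apricots (difference of -2.58 log2 units, SE 0.31) and more in low chill peaches (-2.05, SE 0.30). DAM6 (ppa010714m) did so too, with differences of -2.60 and -1.52 log2 units. Prupe.1G538400 followed with -0.69 and -1.60, whereas Prupe.1G524500 went the other way in apricot (1.203) and did not differ in peach beyond its error (0.32, SE 0.24).

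The study's tables annotate 24 of the 200 neighbours by their Arabidopsis matches, and 176 carry no name here. These annotations were taken from the study's own result tables, so the groups drawn from them are not independent of these data. Their shares of called genes cannot be weighed against those of all genes. Of 5 transcription factors and RNA regulators (Prupe.1G523000, Prupe.1G527100, Prupe.1G532600, Prupe.1G533300 and Prupe.1G534300), 1 was called in at least 1 of the 4 comparisons around dormancy release, where 23.7% of all genes were. That was Prupe.1G523000, with 47.4, 69.6 and 99.1 CPM in high chill peaches at 1000 CH, against 15.7, 24.9 and 28.5 CPM at 100 CH (log2 fold change 1.63, SE 0.24, adjusted p 0.012). Its call was lost without A318 100 CH replicate 4 or A318 1000 CH replicate 4. Prupe.1G533300, which matches the microRNA processing factor HYL1, moved by 0.01, -0.04, -0.56 and 0.12 log2 units in the late apricots, early apricots, low chill and high chill peaches. The median log2 fold change of the group was -0.62 in low chill peaches, against 0.04 over all genes, -0.28 in the late apricots, against 0.07, -0.04 in the early apricots, against 0.02, and 0.12 in high chill peaches, against 0.15. At petal visible against 800 CH, Prupe.1G532600, a homeodomain-like gene, fell along with Prupe.1G527100 (log2 fold changes -1.19 and -3.18).

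Besides the DAM genes, 2 neighbours are annotated as MADS-box genes. Prupe.1G538800, which matches AGL16, a gene known in Arabidopsis to delay flowering, was called in none of the 15 comparisons, with log2 fold changes of -0.33, -0.17, -0.31 and -0.0045 around dormancy release. Its r with DAM6 was 0.80 in apricot and 0.51 in peach. Prupe.1G533700, which matches AGL80, a gene of the Arabidopsis central cell, was too low to test, reaching at most 0.221 CPM in an apricot library and 1.7 CPM in a peach library. Among the 5 cell wall and secreted protein genes (Prupe.1G523700, Prupe.1G529800, Prupe.1G533200, Prupe.1G536600 and Prupe.1G538400), 2 were higher in the late and 2 in the early apricots, 2 were higher and 1 lower in low chill peaches, and none was called in high chill peaches against 2-fold, with a median log2 fold change of 1.30, 1.895, 1.14 and 1.04. The medians over all genes were 0.07, 0.02, 0.04 and 0.15. Prupe.1G533200, a hydroxyproline-rich glycoprotein, was called in none of the 4, and the other 4 genes of the group were each called in at least 1, where 23.7% of all genes were. Since the group was drawn from the study's own results, this difference in share says nothing about cell wall genes in general.

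Of the 5 genes of transport and metabolism, 1 was called in at least 1 of the 4 comparisons, where 23.7% of all genes were. Prupe.1G528600 (PUR5, purine synthesis), Prupe.1G532800 (ATR1, a cytochrome P450 reductase), Prupe.1G525300 and Prupe.1G540100 (a zinc-binding dehydrogenase) were called in none of the 4 comparisons. Prupe.1G532800 had 73.8 to 110 CPM in low chill peaches at 600 CH, against 143 to 171 CPM at 100 CH, and a log2 fold change of -0.80, and its r with DAM6 in peach was 0.78. Prupe.1G537600, which matches the cytochrome P450 CYP82C4, had 0.177 to 5.4 CPM in low chill peaches at 600 CH, against 0 to 0.628 CPM at 100 CH (log2 fold change 4.38, adjusted p 0.0052). Prupe.1G525300 was higher in low chill than in high chill peaches at pre-bloom, at 7.74 to 30.2 against 3.63 to 8.65 CPM (log2 fold change 1.99, adjusted p 0.00023). Of the remaining annotated genes, Prupe.1G525700, Prupe.1G533400 (RGTA1), Prupe.1G535400 (a Sas10/Utp3/C1D family protein), Prupe.1G535700 (SAB), Prupe.1G539000 (a pentatricopeptide repeat protein) and Prupe.1G539600 were called in none of the 4, with log2 fold changes between -0.93 and 0.40. Prupe.1G540400, without annotation, led the gains in high chill peaches whose groups do not overlap, with 11.1, 13.5 and 30.2 CPM at 1000 CH, against 0.171, 1.38 and 4.88 CPM at 100 CH (log2 fold change 3.24, SE 0.41, adjusted p 3.7e-06).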

How the data were processed

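Per the methods of the study, reads were trimmed with skewer, aligned to the Prunus persica v2.0 genome with STAR 2.5.3a in both species and counted over exons with HTSeq-count (version not given in the sources used here). The authors deposited these as raw counts per gene, without normalization. Neither the strand setting nor the handling of reads with several matches is stated, so overlapping, antisense and duplicated genes may share counts, and apricot reads were counted on peach gene models. Apricot libraries held single-end reads, and peach libraries longer paired-end reads with ribosomal reads removed, so levels were not compared between species. The paper reports that ribosomal content contributed significantly to variation among the peach transcriptomes, with no significant interaction with genotype or time point. The members and lists used here were chosen with earlier results of these data known.

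Counts were fitted per species with edgeR 4.0.16 (R 4.3.3), with all libraries of a species in 1 fit, filterByExpr by group (a lenient filter, since 2 apricot groups have 1 library), TMM scaling and a robust quasi-likelihood model. Genotypes weighed equally in each comparison. Genes were called by glmTreat against a 2-fold change at a Benjamini-Hochberg adjusted p below 0.05 over 22472 genes in apricot and 22574 in peach, and adjusted p-values in the text come from that test unless no change is named; differences between classes in a change were tested with glmQLFTest. On counts simulated for the late apricots, 87 of 100 genes changed 4-fold and 99 of 100 changed 8-fold were recovered among 21410 genes, and for the low chill peaches 82 and 98 of 100 among 21435. The changed genes were drawn only above a minimum expected count, so these rates do not cover genes with few counts. Each simulated gene had a single mean over all libraries, and each changed gene had the same change in both genotypes. The rates thus do not cover genes whose change differs between genotypes. Correlations used group means of log2 CPM with a prior count of 2. DESeq2 1.42.0 and the other alternatives are described in the closing section. Libraries of a group are trees or clones of 1 genotype, so p-values measure the spread between these samples. No pair of libraries within a group agreed within sampling noise (smallest chi-square per gene 7.75 over 50 apricot pairs and 3.43 over 99 peach pairs). Floors cover counting error only.

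The genes named were those lower or higher around dormancy release in both species, the 3 with the largest change in each direction among called genes without overlap in each comparison, the 5 rows on each side of the replaced models, the annotated genes, and the 3 with the highest r with DAM6 and with DAM4 in each species. Prupe.1G530000, Prupe.1G532300, Prupe.1G538200, the run at Prupe.1G525600 to Prupe.1G526200 and the lowest correlations were chosen after their values were seen.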

Additional observations from a re-analysis of the deposited data

Results flagged for a closer look

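Among 105 groups of 4 libraries examined over 7 neighbours, 9 held a library far from the others, and chance alone would mark about 1 in 20. For Prupe.1G521800 these were A318 Pre-bloom replicate 3 (7.77 CPM, others 12.1 to 12.4), A323 100 CH replicate 2 (37.2 CPM, others 29.5 to 30.8) and A340 Pre-bloom replicate 1 (14.3 CPM, others 5.49 to 6.98). For Prupe.1G538400 it was A318 1000 CH replicate 1 (37.4 CPM, others 14.2 to 17.8). For Prupe.1G523700 these were A323 0 CH replicate 3 (37.3 CPM, others 61.3 to 66.1), A323 100 CH replicate 4 (20.01 CPM, others 9.69 to 11.2) and A340 100 CH replicate 2 (23.1 CPM, others 12.1 to 13.9). For Prupe.1G536600 these were A209 100 CH replicate 2 (3.72 CPM, others 0.344 to 0.758) and A323 Pre-bloom replicate 1 (2.62 CPM, others 0.569 to 0.726).

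Several genes changed by different amounts in the 2 classes of a species, by edgeR's test of the difference itself. Between early and late apricots (100 to 400 CH), the difference in log2 fold change was -2.58 for Prupe.1G521800 (adjusted p 5.6e-08), 1.203 for Prupe.1G524500 (0.0052), -0.69 for Prupe.1G538400 (0.00064) and 5.19 for Prupe.1G523700 (3.6e-08). Between low and high chill peaches (100 to 600 CH), it was -2.05 for Prupe.1G521800 (1.7e-07), -1.60 for Prupe.1G538400 (5.7e-05), -2.62 for Prupe.1G536500 (1.7e-05) and 6.36 for Prupe.1G536600 (2.8e-09). Each class holds 2 genotypes, and these comparisons share their 100 CH libraries with those around dormancy release. For Prupe.1G538400 in the early apricots, the genotypes moved in opposite directions, with log2 fold changes of -1.26 in A2137 and 0.43 in A1956.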

How the results depend on the processing

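Limits and alternatives were as follows. Leaving out single libraries gave between 11 and 17 called neighbours in the late apricots (800 against 100 CH), 3 to 4 in the early apricots (400 against 100 CH), 12 to 17 in A660 and A1956 (100 against 0 CH), 42 to 46 at petal visible, 20 to 23 in low chill peaches (600 against 100 CH), 10 to 23 in high chill peaches (1000 against 100 CH), 10 to 16 in all peaches (100 against 0 CH), 7 to 12 and 5 to 8 at low and high chill pre-bloom, 7 to 7 and 7 to 11 between early and late apricots at 100 and 400 CH, 0 to 0 at both 0 and 100 CH, 17 to 23 at 600 CH and 10 to 13 at pre-bloom between low and high chill peaches, and 43 to 56 and 39 to 49 for the class differences in apricot and peach. Without a required 2-fold change, the counts over the first 15 comparisons in this order were 85, 48, 62, 127, 79, 85, 78, 60, 63, 49, 78, 3, 11, 72 and 57, so the counts depend on the size of change asked for. These are 49.7%, 28.1%, 36.3%, 74.3%, 45.4%, 48.9%, 44.8%, 34.5%, 36.2%, 28.7%, 45.6%, 1.72%, 6.32%, 41.4% and 32.8% of the neighbours tested, against 47.7%, 29.4%, 36.9%, 70.4%, 39.9%, 44.8%, 46.4%, 32.1%, 36.6%, 29.8%, 43.6%, 1.9%, 5.74%, 42.2% and 32.2% of all genes. DESeq2's Wald test against 2-fold called 9 in the late apricots, 16 in low chill and 12 in high chill peaches and 4 at each pre-bloom comparison. A fit of only the 2 groups compared gave 9 in the late apricots and 1 between low and high chill peaches at 100 CH.

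Single genotypes carried some counts, and shares over all genes are not given for the fits by genotype. Alone, A1267 gave 6 in the late apricots, A1956 gave 0 and A2137 21 in the early apricots, A1956 gave 7 at 100 against 0 CH, A209 gave 16 at 600 against 100 CH, and A318 and A323 gave 12 and 10 at 1000 against 100 CH. In peach at 100 against 0 CH, A209, A318 and A340 alone gave 2, 4 and 1, and at low chill pre-bloom A209 and A340 gave 3 and 7. Between early and late apricots, 4 were called without A1267, 22 without A1956 and 1 without A2137 at 100 CH, and 34 without A1956 and 3 without A2137 at 400 CH. Without A340, 6 were called between low and high chill peaches at pre-bloom. Without the shallow peach libraries 7 were called at low chill pre-bloom, and apricot had no such libraries. Prupe.1G536800 turned to a log2 fold change of 0.30 in A209 alone (100 against 0 CH). For likeness, a limit of r of 0.8 gave 0 and 4 neighbours with DAM4 and DAM6 in apricot and 4 and 4 in peach, and buds alone (14 groups) gave 6 and 5 in apricot (3.51% and 2.92%, against 2.25% and 2.31% of all genes). Why these counts moved was not tested beyond the fewer libraries that each holds.

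Same-numbered libraries were not shown to be paired, since no comparison had every same-numbered pair above a correlation of 0.1. In A660 and A1956 at 100 against 0 CH, however, the median of these pairs was 0.104, against -0.087 for other pairs. At 800 against 100 CH the pairs gave 0.475, 0.134 and 0.254 in A1267, but -0.086 to 0.060 in A660. In the remaining comparisons the medians lay between -0.040 and 0.025. Pairing is thus possible in some apricots, and the main fit leaves it out. With a replicate block, the counts in the same order were 13, 3, 15, 44, 22, 19, 11, 10, 6, 7, 10, 0, 0, 17 and 12, and 53 and 46 for the class differences. DESeq2 size factors and omitting the low-count filter left all counts within 1.5 times. Low counts limit genes below about 1 CPM, most of all in the shallow peach libraries.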
